A study of Homo sapiens with 24 samples.

Results

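The proteasome is the protease complex that degrades most short-lived and damaged proteins once they carry ubiquitin. Described here are the genes of its subunits, assembly chaperones and regulators in human breast cancer lines that express the estrogen receptor (ER+), grown in low or high glucose. The members were taken by symbol alone, as every PSMA, PSMB, PSMC, PSMD, PSME, PSMF or PSMG gene of the table, which gave 47 rows with 46 different symbols among 18889 genes. The rule reads symbols only. PSMD9 has 2 rows, of which the second is a readthrough gene that shares exons with it and had 0 to 32 reads per culture. PSMA8, PSMB11 and PSME3IP1 fall under the naming rule and were not analysed here under those symbols.

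RNA-seq had been run on 24 cultures. The 3 lines were ZR-75-30, MDA-MB-175 and HCC1500, each of which was kept for 48 h in serum-free medium with 5 mM glucose (LG) or 25 mM glucose (HG), 4 cultures per condition, after the cells had been conditioned in low-glucose medium. The lines carry no introduced allele and received no drug, and LG is the control of each. Every line is a single established line, so the spread and the p-values below are those of cultures of that line, and the sources do not say whether the cultures were started separately.

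Within a culture, every value is a whole multiple of what 1 read is worth, and 9140024 to 17998819 reads per culture could be recovered from this. A count of 3 reads corresponds to 0.953 to 2.29 in the deposited unit. One library stood apart. In HCC1500 HG culture 3, 42 of the 44 members with a mean of at least 10 in the other HG cultures were above that mean, by a median of 1.03 on the log2 scale. HCC1500 is therefore described first without that culture, and with it afterwards. Of 8 luminal markers (ESR1, GATA3, FOXA1, KRT8, KRT18, KRT19, EPCAM and CDH1), all were detected in every line, but they did not rank the lines alike. KRT8 averaged 22515 in MDA-MB-175 LG, 18786 in ZR-75-30 LG and 5623 in HCC1500 LG. ESR1, the estrogen receptor, averaged 335, 618 and 3178 in the same order. CDH1 (E-cadherin) was low in ZR-75-30 LG, at 55.6 against 6498 in MDA-MB-175 and 8223 in HCC1500.

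The 20S core of the proteasome is a barrel of outer alpha rings (PSMA genes) and inner beta rings (PSMB genes). Its cutting sites are carried by PSMB5, PSMB6 and PSMB7. Under interferon signalling these are replaced by PSMB8, PSMB9 and PSMB10, which gives the immunoproteasome, whose cleavage products favour peptide loading onto MHC class I. The 19S particle caps the barrel and consists of a base with ATPases (PSMC genes), a scaffold and ubiquitin receptors, and of a lid with the deubiquitinase PSMD14. PA28, built from PSME1 and PSME2, is an alternative cap that is also induced by interferon, PSME3 forms a nuclear version of it, and PSME4 (PA200) is a further activator. PSMG genes, PSMD5, PSMD9 and PSMD10 are chaperones that act during assembly and are not part of the finished particle.

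PSMB8 in ZR-75-30 had the largest called rise with glucose and PSME1 in HCC1500 the largest called fall, and the change of both differed between the lines. The promoters of the immunoproteasome and PA28 genes are shown for that reason, as the 250 bases before each start in RefSeq (GRCh38.p14), 5′ to 3′ along the gene's strand. PSMB8 has 2 annotated starts at chr6:32844048-32844297 and chr6:32844680-32844929 (minus strand), and PSMB9 lies nearby at chr6:32853942-32854191 (plus strand). PSMB10 is at chr16:67936851-67937100 (minus strand), PSME1 at chr14:24135944-24136193 (plus strand) and PSME2 at chr14:24146611-24146860 (minus strand). Capitals mark letters that match an interferon response-like motif, GAAA and GAAA with any 2 bases between them or the same with TTTC on the other strand, in PSMB10 and PSME2, and an antioxidant response-like motif, TGACNNNGC or its other strand GCNNNGTCA, in PSMB9 and PSME1. PSME2 also holds the antioxidant response-like letters, which are not marked.
PSMB8, start 1: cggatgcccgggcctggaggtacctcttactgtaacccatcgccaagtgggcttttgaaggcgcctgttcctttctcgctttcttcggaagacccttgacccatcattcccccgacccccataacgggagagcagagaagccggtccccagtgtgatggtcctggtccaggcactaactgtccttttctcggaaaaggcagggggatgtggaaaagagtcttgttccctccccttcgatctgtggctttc
PSMB8, start 2: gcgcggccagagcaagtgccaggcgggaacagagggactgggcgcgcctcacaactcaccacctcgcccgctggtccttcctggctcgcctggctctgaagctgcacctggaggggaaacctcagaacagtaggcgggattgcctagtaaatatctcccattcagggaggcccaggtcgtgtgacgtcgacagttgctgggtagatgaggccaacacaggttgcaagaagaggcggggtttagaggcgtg
PSMB9: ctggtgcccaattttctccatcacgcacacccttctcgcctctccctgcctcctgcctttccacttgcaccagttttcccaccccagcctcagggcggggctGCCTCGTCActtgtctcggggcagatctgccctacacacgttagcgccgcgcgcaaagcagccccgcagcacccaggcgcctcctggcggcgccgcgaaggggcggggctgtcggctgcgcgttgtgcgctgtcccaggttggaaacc
PSMB10: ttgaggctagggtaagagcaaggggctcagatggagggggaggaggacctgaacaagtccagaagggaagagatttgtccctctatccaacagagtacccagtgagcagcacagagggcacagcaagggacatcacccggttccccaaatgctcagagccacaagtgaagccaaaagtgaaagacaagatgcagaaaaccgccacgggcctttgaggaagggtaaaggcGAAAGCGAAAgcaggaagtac
PSME1: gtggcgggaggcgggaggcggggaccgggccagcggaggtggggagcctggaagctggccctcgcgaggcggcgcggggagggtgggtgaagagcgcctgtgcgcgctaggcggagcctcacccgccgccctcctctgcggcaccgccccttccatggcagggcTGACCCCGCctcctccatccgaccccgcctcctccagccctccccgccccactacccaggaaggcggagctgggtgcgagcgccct
PSME2: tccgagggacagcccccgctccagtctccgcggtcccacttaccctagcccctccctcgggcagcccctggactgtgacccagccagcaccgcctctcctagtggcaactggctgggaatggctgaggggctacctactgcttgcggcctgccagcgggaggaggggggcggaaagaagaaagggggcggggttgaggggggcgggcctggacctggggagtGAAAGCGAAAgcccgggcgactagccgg
Promoters were found for 40 of the 46 member symbols, with 49 starts in all. A member was counted if any of its starts held the letters, while the percentages are per start, so they have different bases. The interferon response-like letters occurred in those of 5 members (PSMA4, PSMB4, PSMB10, PSME2 and PSMG4) and in 3.02% of all 35116 promoters. The antioxidant response-like letters occurred in those of 13 members and in 10.9% of all promoters. Both motifs are short, and the matches are a description of the letters in these windows. The absence of a match, as of both motifs in PSMB8, says only that the letters are not in the windows of the gene. PSMB9 had no interferon response-like match in its own window. A start window of its neighbour TAP1 (chr6:32853705-32853954, minus strand), not shown, overlaps that window and holds interferon response-like letters.

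Values were compared on the scale log2(value + 1) with limma, and a gene was called when its Benjamini-Hochberg adjusted p over all genes tested was under 0.05. In MDA-MB-175, 13 of 47 members were called, 2 higher and 11 lower in HG. Of all genes tested in that line, 11.9% were called higher and 13.7% lower. In ZR-75-30, 31 of 47 members were called, 6 higher and 25 lower, against 23.4% of all genes called higher and 22.7% called lower. The median log2 change of the members was -0.07 in MDA-MB-175 and -0.16 in ZR-75-30, where the median over all genes was -0.02 and 0.01.

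In HCC1500 without HG culture 3, 23 of 46 tested members were called, 7 higher and 16 lower, while 20.9% of all genes were called higher and 37.7% lower. The direction of these calls depended on the scaling between cultures. After median-of-ratios scaling 19 members were called, 16 higher and 3 lower, beside 28.7% and 28.2% of all genes. The median over members moved from -0.07 to 0.05, and that over all genes from -0.12 to -0.01. With HG culture 3 in the fit, 20.5% of all genes but 0 members were called by limma, and 2 members had an unadjusted p under 0.05.

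**Figure D1:**
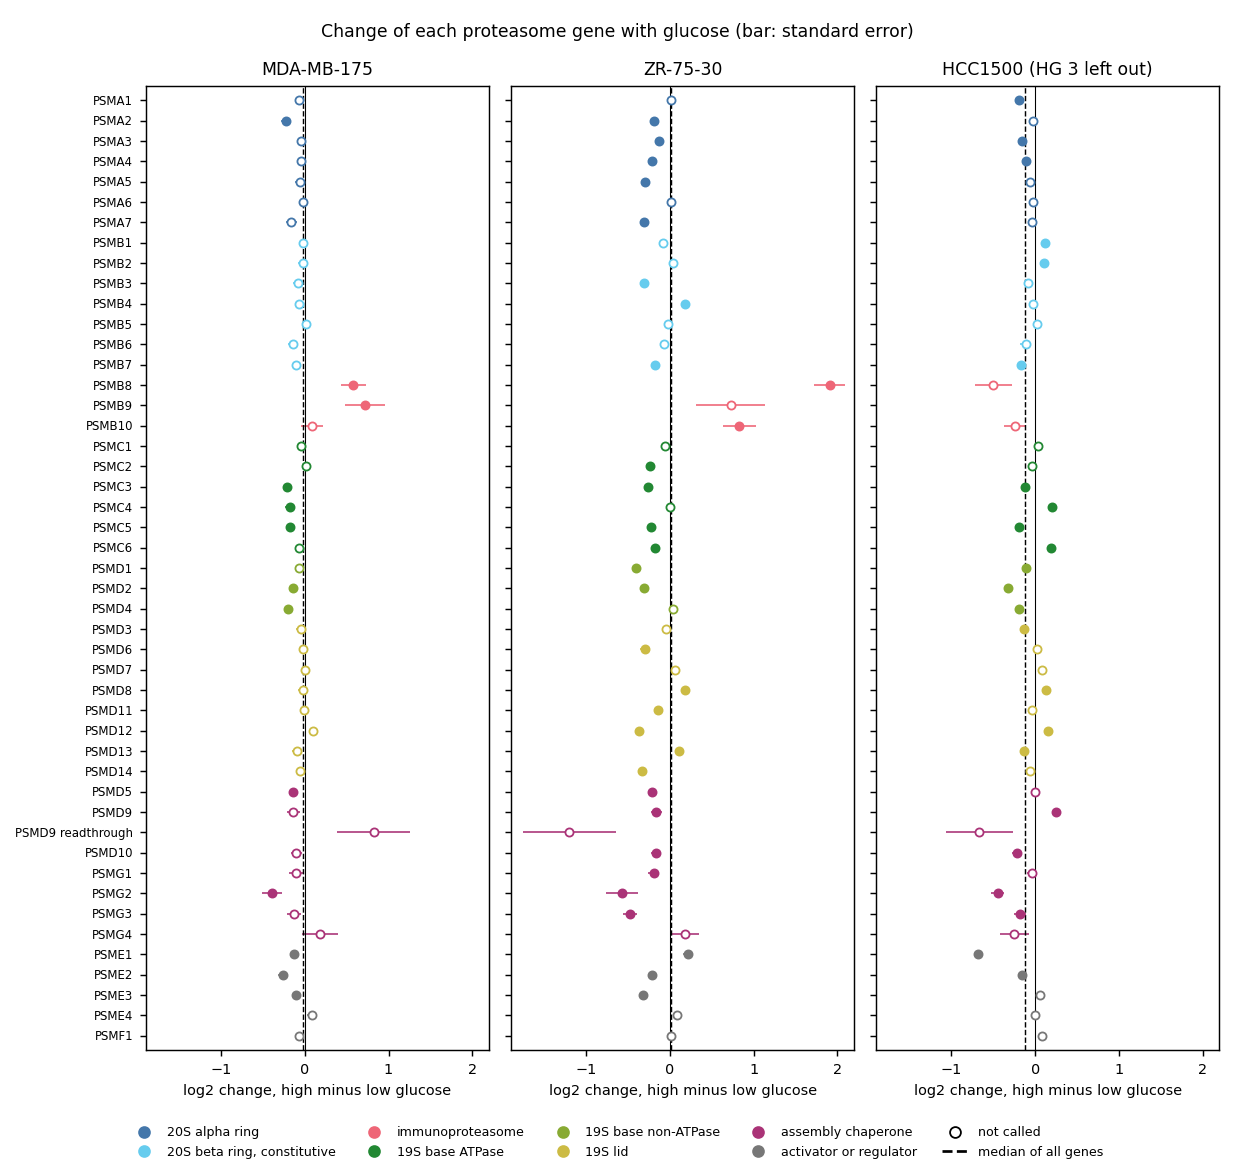
Log2 change (HG minus LG, horizontal axis, log2(value + 1) scale) of each proteasome gene in the 3 lines, ordered by part of the proteasome; bars are standard errors, and HCC1500 is without HG culture 3. PSMB8 in ZR-75-30 lies at 1.91, while most structural subunits lie within 0.4 of 0.

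Whether the glucose change differed between the lines was tested with a limma F test on the interaction over 23 cultures. It was called for 26 of 47 members, where 48.6% of all genes were called. The members with the smallest adjusted p were PSME1 (3.29e-09), PSMD12 (8.75e-09) and PSMB8 (3.5e-07).

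The largest called rises with glucose were those of immunoproteasome subunits. PSMB8 and PSMB10 rose in ZR-75-30, PSMB8 and PSMB9 rose in MDA-MB-175, and neither of the subunits tested in HCC1500 was called. PSMB8 is the counterpart of PSMB5. In ZR-75-30 its value was 19.9, 29.6, 13.1 and 19.1 in the LG cultures and 79.7, 83.7, 71.4 and 71.3 in the HG cultures. All HG cultures lay above all LG cultures, and the rise was 1.91 ± 0.19 on the log2 scale (SE, adjusted p = 1.31e-07), or 3.75-fold on the value + 1 scale. In MDA-MB-175 PSMB8 was 54.2, 34.8, 42.7 and 51.9 in LG and 78.6, 75.5, 57.8 and 62.6 in HG. The groups again did not overlap, with a change of 0.58 ± 0.15 (adjusted p = 0.00783). The call in this line was lost when genes with low values were kept (adjusted p = 0.053).

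HCC1500 showed no such rise. PSMB8 was 12.9, 10.8, 12.3 and 9.47 in its LG cultures and 8.26, 7.46 and 7.39 in HG cultures 1, 2 and 4, a change of -0.50 ± 0.22 that was not called (adjusted p = 0.0634). In HG culture 3 it was 14.1. Exons of PSMB8 overlap those of an antisense RNA and of PSMB9 on the other strand over 602 bases, and the sources used here do not state whether reads were counted by strand.

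PSMB10, the counterpart of PSMB7, was 14.4, 21.0, 16.5 and 16.8 in ZR-75-30 LG and 41.1, 33.1, 26.8 and 25.4 in HG. Every HG culture was above every LG culture, with a change of 0.83 ± 0.20 (adjusted p = 0.0019). In MDA-MB-175 it was 77.9, 61.0, 76.3 and 50.4 in LG and 79.0, 67.6, 69.5 and 63.1 in HG, and the groups overlapped (0.09 on the log2 scale, adjusted p = 0.682). In HCC1500 it was 46.4, 50.5, 44.9 and 48.2 in LG and 43.1, 46.3 and 32.3 in HG, with 138 in HG culture 3. That difference was not called without culture 3 (-0.24, adjusted p = 0.136). The difference between the lines in the glucose change was called for PSMB10 (adjusted p = 0.00138).

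PSMB9, the counterpart of PSMB6, was close to the detection floor outside MDA-MB-175. There it was 5.62, 4.69, 3.99 and 5.60 in LG and 7.49, 10.8, 9.37 and 7.89 in HG, values that rest on 7 to 24 reads. The groups did not overlap, and the change was 0.72 ± 0.24 (adjusted p = 0.0353), a call that was lost under DESeq2 and in 5 of the fits that left out 1 culture. In ZR-75-30, PSMB9 had at most 1 read in each LG culture and 1 to 4 reads in each HG culture (adjusted p = 0.167). In HCC1500 it had 0 to 3 reads and was not tested.

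Since a ratio of 2 genes in 1 culture does not depend on the scaling of that culture, each immunoproteasome subunit was also set against the constitutive subunit it replaces, per kilobase of the canonical transcript. In ZR-75-30, PSMB8 was 0.886% ± 0.302 (SD, n = 4) of PSMB5 in LG and 3.36% ± 0.225 in HG. In MDA-MB-175 the same ratio was 3.68% ± 0.723 and 5.43% ± 0.705. In HCC1500 it was 1.10% ± 0.201 in LG and 0.731% ± 0.0337 (n = 3) in HG. The ratio thus moved in the same direction as PSMB8 itself in each line. PSMB10 was 1.67% ± 0.308 of PSMB7 in ZR-75-30 LG and 3.47% ± 0.806 in HG, 7.29% and 8.28% in MDA-MB-175, and 6.93% and 6.70% in HCC1500. PSMB9 was 0.967% of PSMB6 in MDA-MB-175 LG and 1.91% in HG. Messenger RNA of the constitutive subunits therefore exceeded that of their replacements in all 3 lines and in both conditions.

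**Figure D2:**
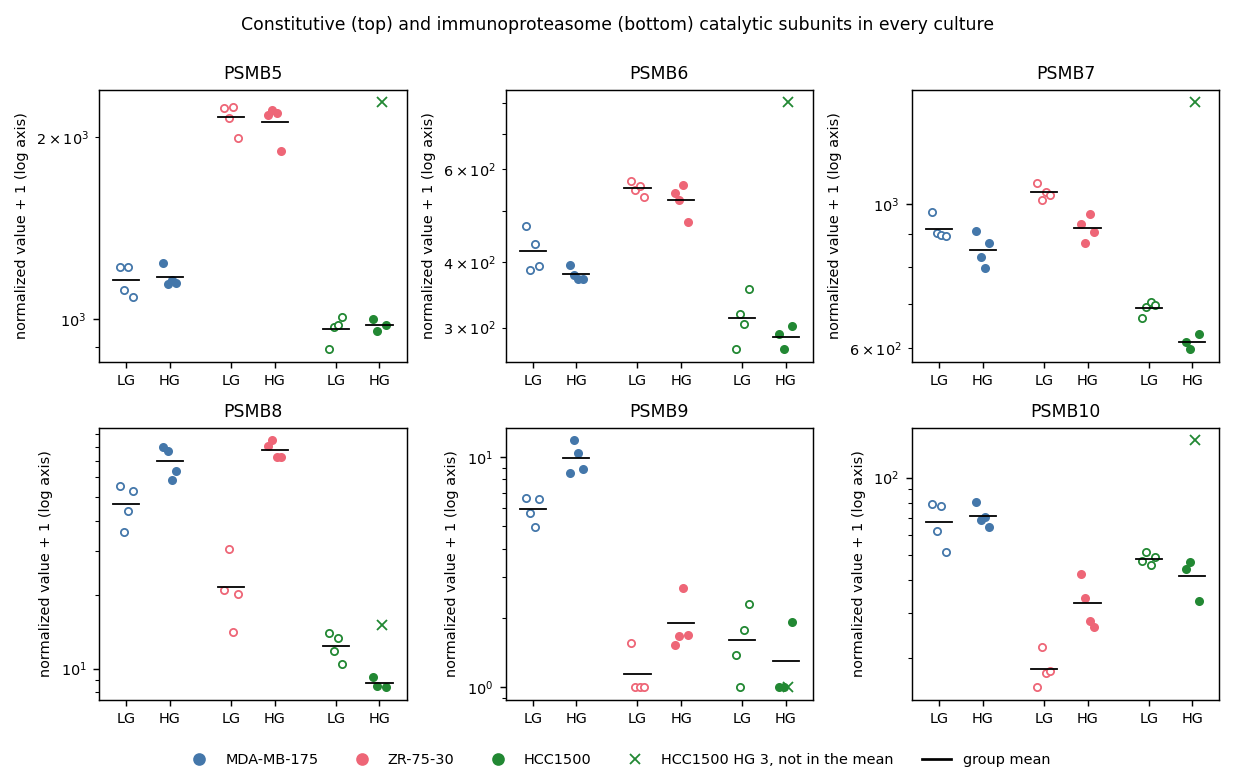
Values of the constitutive catalytic subunits PSMB5, PSMB6 and PSMB7 (top) and of the immunoproteasome subunits PSMB8, PSMB9 and PSMB10 (bottom) in every culture, with value + 1 on a log axis, open circles for LG, filled circles for HG and a line at the group mean. PSMB8 in ZR-75-30 goes from 13.1 to 29.6 in LG to 71.3 to 83.7 in HG, while PSMB5 overlaps between LG and HG in all 3 lines; the cross is HCC1500 HG culture 3.

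Among genes that share induction or antigen presentation with the immunoproteasome, the lines also differed in their counts. There were 10 rows for such genes, TAP2 having a pair of them. In MDA-MB-175 5 were higher and 1 lower in HG (9 tested), beside 11.9% and 13.7% of all genes. In ZR-75-30 8 were higher and 0 lower by limma (9 tested), beside 23.4% and 22.7% of all genes. In HCC1500 1 was higher and 5 lower, beside 20.9% and 37.7% of all genes. The list was not tested against these shares. TAP1, the peptide transporter subunit encoded next to PSMB9, went from a mean of 12.1 to 30.3 in ZR-75-30 (1.28 on the log2 scale, adjusted p = 0.000125). The changes of TAP1 in MDA-MB-175 (0.03) and HCC1500 (-0.21) were not called. NLRC5, a transactivator of MHC class I genes, rose by 1.85 in ZR-75-30 and 0.68 in MDA-MB-175, and its difference in HCC1500 was -0.04. B2M, the MHC class I light chain, was called higher in all 3 lines, by 0.97 in HCC1500, 0.92 in ZR-75-30 and 0.47 in MDA-MB-175.

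Leukocytes carry much immunoproteasome, so the leukocyte markers were read beside these genes. Of the 6 on the list, CD68 and LYZ were analysed. Their summed value was 4.58 to 6.84 in ZR-75-30 LG and 33.6 to 43.9 in ZR-75-30 HG, all of the HG value from CD68, with LYZ at 0 in each of those cultures. CD68 also encodes a lysosomal membrane protein that epithelial cells express. In HCC1500 the sum was 0.760 to 2.54 in LG and 2.95 to 4.15 in HG, and in MDA-MB-175 10.2 to 13.4 in LG and 10.5 to 19.97 in HG. CD68 was called higher in HG in each line, by 1.18 in MDA-MB-175 (adjusted p = 0.0288), 2.55 in ZR-75-30 and 0.95 in HCC1500. The part of other cells in the PSMB8, PSMB9 and PSMB10 values was not tested, and in bulk RNA fewer cells of a type and less RNA per cell cannot be told apart. Summed luminal markers in ZR-75-30 were 34942 to 40806 in HG, below its LG cultures (49036 to 53679), with 1 of the 8 markers called higher (EPCAM, 0.22) and 5 lower. In HCC1500 they were 30778 to 30899 in HG and 32482 to 34196 in LG, with 3 markers called higher and 5 lower. Fibroblast and endothelium markers (4 genes analysed) summed to 109 to 125 in ZR-75-30 LG and 82.8 to 103 in HG, and to 238 to 263 in HCC1500 LG and 178 to 209 in HG. The part of these differences in the results was likewise not tested.

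Of the 14 constitutive 20S genes, 1 was called lower in MDA-MB-175 (13.7% of all genes), 1 higher and 7 lower in ZR-75-30 (23.4% and 22.7% of all genes), and 2 higher and 4 lower in HCC1500 (20.9% and 37.7% of all genes). Under median-of-ratios scaling the counts in HCC1500 were 4 higher and 0 lower by limma. None of the calls by limma concerned PSMB5 or PSMB6. PSMB5 was 2230, 2150, 2242 and 1989 in ZR-75-30 LG and 2175, 2212, 2189 and 1897 in HG, with overlapping groups. Its change was -0.02 ± 0.05 there, 0.01 ± 0.05 in MDA-MB-175 and 0.03 ± 0.04 in HCC1500. PSMB6 differed by -0.07 ± 0.05, -0.14 ± 0.06 and -0.11 ± 0.07 in the same order. PSMB7 fell in ZR-75-30, from 1079, 1016, 1042 and 1032 to 932, 872, 963 and 905 (-0.18 ± 0.04, adjusted p = 0.000975). In HCC1500 it was lower by a like amount (-0.17 ± 0.04, adjusted p = 0.000383), a call lost under median-of-ratios scaling.

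Outside the cutting sites, the extremes of the core in ZR-75-30 were PSMA7 and PSMB3 on the low side and PSMB4 on the high side. PSMA7, an alpha-ring subunit, was 1676, 1662, 1784 and 1648 in LG and 1434, 1368, 1385 and 1255 in HG (-0.32 ± 0.04, adjusted p = 7.48e-06). PSMB3, a beta subunit without a cutting site, had a change of -0.31 ± 0.04 on the same scale (adjusted p = 1.17e-05). PSMB4, likewise without a cutting site, was 3836, 3817, 3862 and 3575 in LG and 4323, 4391, 4296 and 4031 in HG (0.18 ± 0.04, adjusted p = 0.000913). LG and HG cultures did not overlap for any of these genes. The core gene called in MDA-MB-175 was the alpha subunit PSMA2 (-0.23 ± 0.06, adjusted p = 0.00768). In HCC1500 the alpha subunit PSMA1 had the largest fall of the core (-0.19 ± 0.04, adjusted p = 0.000363), and PSMB1 the largest rise (0.12 ± 0.03, adjusted p = 0.00588). The lower call of PSMA1 was lost under median-of-ratios scaling, edgeR and DESeq2.

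Of the 17 genes of the 19S cap, 5 were called lower and none higher by limma in MDA-MB-175, 2 higher and 10 lower in ZR-75-30, and 4 higher and 7 lower in HCC1500. The shares of all genes are those given for the core, and in HCC1500 the counts are close to them. Their direction in HCC1500 depended on the scaling, with 7 higher and 1 lower after median-of-ratios scaling. The 19S gene with the largest change in ZR-75-30 was PSMD1, a scaffold protein of the base. It was 2029, 2114, 2133 and 2173 in LG and 1611, 1534, 1613 and 1591 in HG, well apart, with a change of -0.41 ± 0.04 (adjusted p = 2.35e-08). The difference of PSMD1 was not called in MDA-MB-175 (-0.07 ± 0.04) and was smaller in HCC1500 (-0.11 ± 0.03, adjusted p = 0.00514), where it had no clear sign under median-of-ratios scaling (0.00633).

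PSMD2, the other scaffold protein of the base, was called lower in all 3 lines. It was 2718, 2624, 2662 and 2632 in MDA-MB-175 LG and 2526, 2471, 2298 and 2363 in HG (-0.14 ± 0.04, adjusted p = 0.0155). In ZR-75-30 it was 4219, 4193, 4363 and 4088 in LG and 3482, 3452, 3404 and 3221 in HG (-0.31 ± 0.04, adjusted p = 9.83e-07). In HCC1500 it was 3523, 3584, 3666 and 3576 in LG and 2893, 2869 and 2836 in HG, with 4046 in HG culture 3 (-0.32 ± 0.02, adjusted p = 2.16e-09 without it). HG cultures lay below LG cultures in each line, apart from HCC1500 HG culture 3. PSMD4, a ubiquitin receptor, fell in HCC1500 (-0.20 ± 0.04, adjusted p = 0.000299) and in MDA-MB-175 (-0.20 ± 0.05, adjusted p = 0.00402), and its difference in ZR-75-30 was 0.04 ± 0.04. The HCC1500 call of PSMD4 was lost under median-of-ratios scaling, edgeR and DESeq2.

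Members called lower in all 3 lines were the base ATPases PSMC3 and PSMC5, the scaffold PSMD2, the PA28 subunit PSME2 and the alpha-ring chaperone PSMG2. These are 5 of the 46 member rows tested in every line, where 6.74% of all genes tested in every line were called lower in each. No member was called higher in all 3 lines by limma, against 3.73% of all genes. Under median-of-ratios scaling, edgeR or DESeq2 the set lower in all 3 lines was PSMD2 and PSMG2. PSMC3 differed by -0.12 ± 0.04 in HCC1500, -0.21 ± 0.05 in MDA-MB-175 and -0.26 ± 0.04 in ZR-75-30. PSMC5 differed by -0.20 ± 0.03, -0.18 ± 0.04 and -0.22 ± 0.04 in the same order. The test of a difference between lines was not called for PSMC3 (adjusted p = 0.310) or PSMC5 (adjusted p = 0.785).

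PSMG2, which helps to build the alpha ring, had low values with wider spread. It was 94.3, 125, 101 and 85.5 in MDA-MB-175 LG and 79.0, 86.9, 75.7 and 64.7 in HG (-0.39 ± 0.12, adjusted p = 0.0219). In ZR-75-30 it was 72.0, 70.5, 55.8 and 56.5 in LG and 57.3, 50.6, 43.3 and 25.4 in HG (-0.57 ± 0.19, adjusted p = 0.0211). LG and HG overlapped in both of these lines, and the calls there were lost when genes with low values were kept (adjusted p = 0.0893 and 0.143) and in 3 of the fits that left out 1 culture in each line. In HCC1500 PSMG2 was 133, 136, 143 and 121 in LG and 92.0, 98.0 and 102 in HG, without overlap (-0.45 ± 0.08, adjusted p = 6.04e-05), and 173 in HG culture 3. Exons of PSMG2 share 533 bases with genes on the opposite strand. Of the 8 rows of assembly chaperones, 2 were called in MDA-MB-175, both lower, 6 in ZR-75-30, all lower, and 4 in HCC1500, of which 1 was higher. Of all genes, 13.7% were called lower in MDA-MB-175 and 22.7% in ZR-75-30. In HCC1500 20.9% were called higher and 37.7% lower, and the chaperone counts there are close to these shares.

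The PA28 cap split in ZR-75-30. PSME2 was called lower in all 3 lines. Its change was -0.16 ± 0.04 in HCC1500 (adjusted p = 0.00103), -0.21 ± 0.05 in ZR-75-30 (adjusted p = 0.00221) and -0.27 ± 0.05 in MDA-MB-175 (adjusted p = 0.00172). The HCC1500 call of PSME2 was lost under median-of-ratios scaling, edgeR and DESeq2, and its sign turned with HG culture 3. The partner of PSME2, PSME1, was 594, 583, 660 and 599 in ZR-75-30 LG and 786, 701, 702 and 645 in HG. It rose there by 0.22 ± 0.06 (adjusted p = 0.00361), although the lowest HG culture lay below the highest LG culture. In HCC1500 PSME1 was 801, 881, 859 and 850 in LG and 533, 519 and 526 in HG. This change of -0.69 ± 0.04 (adjusted p = 2.38e-11) separated the groups fully, but HG culture 3 stood at 1310. In MDA-MB-175 it was 1049, 989, 1003 and 966 in LG and 975, 885, 870 and 924 in HG, with 1 HG culture inside the LG range. That change of -0.13 ± 0.05 (adjusted p = 0.042) was lost under many alternatives.

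PSME3, the nuclear relative of PA28, was 629, 646, 621 and 645 in ZR-75-30 LG and 523, 514, 484 and 518 in HG (-0.32 ± 0.04, adjusted p = 5.62e-06). The groups did not overlap. PSME3 was also called in MDA-MB-175 (-0.10 ± 0.04, adjusted p = 0.0489) and not in HCC1500 as deposited (0.06 ± 0.03, adjusted p = 0.105). PSMF1, which encodes the regulator PI31, was not called in any line by limma, with differences of 0.01 ± 0.04 in ZR-75-30, 0.08 ± 0.06 in HCC1500 and -0.08 ± 0.05 in MDA-MB-175.

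Members called in opposite directions in different lines numbered 6 of 47, namely PSME1, PSMC4, PSMC6, PSMD9, PSMD12 and PSMD13. This is close to the share of all genes so called, 12.4%. Each of the 6 was also called in the test of a difference between lines. Their selection by opposite calls in the same cultures makes that outcome likely, so it adds no support. PSMD12, a lid subunit, was 696, 640, 689 and 695 in ZR-75-30 LG and 550, 520, 520 and 509 in HG (-0.37 ± 0.04, adjusted p = 1.29e-06). In HCC1500 it was 1074, 1080, 1083 and 1111 in LG and 1219, 1235 and 1167 in HG (0.15 ± 0.03, adjusted p = 0.000344), and 1404 in HG culture 3. The groups did not overlap in either line. In MDA-MB-175 PSMD12 was not called (0.10 ± 0.04, adjusted p = 0.125).

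The ATPase PSMC4 rose by 0.20 ± 0.04 in HCC1500 (adjusted p = 0.000616) and fell by 0.18 ± 0.05 in MDA-MB-175 (adjusted p = 0.0205). In ZR-75-30 its difference was 0.00 ± 0.04. The ATPase PSMC6 went from 1143, 1096, 1021 and 1164 to 992, 953, 996 and 957 in ZR-75-30 (-0.18 ± 0.04, adjusted p = 0.00195). In HCC1500 it went from 850, 820, 873 and 823 to 956, 931 and 1001 (0.19 ± 0.04, adjusted p = 0.000114). PSMC6 therefore had separate groups in both lines, in opposite order. The base chaperone PSMD9 fell by 0.16 ± 0.06 in ZR-75-30 (adjusted p = 0.0376) and rose by 0.25 ± 0.04 in HCC1500 (adjusted p = 3.83e-05). The lid subunit PSMD13 rose by 0.11 ± 0.04 in ZR-75-30 (adjusted p = 0.0215) and fell by 0.13 ± 0.04 in HCC1500 (adjusted p = 0.00993). LG and HG overlapped for PSMC4 in MDA-MB-175 and for PSMD9 and PSMD13 in ZR-75-30, and none of those calls held over every alternative.

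PSMC4, PSMC6, PSMD12 and PSME1 kept opposite calls under median-of-ratios scaling, rescaling to equal totals (CPM), edgeR and DESeq2. PSMD9 kept them under all of these but DESeq2, and PSMD13 under none of them. PSME3 gained opposite calls under all 4, since it was called higher in HCC1500 there (0.09 to 0.18, adjusted p from 2.47e-06 to 0.0283). PSMD5 gained them under 3 of the 4, PSMD6 under median-of-ratios scaling and edgeR, and PSMB1 under CPM. Of the other lid genes, PSMD8 was called higher in ZR-75-30 (0.18 ± 0.04, adjusted p = 0.000931) and in HCC1500 (0.13 ± 0.04, adjusted p = 0.00981), and PSMD3 lower in HCC1500 (-0.14 ± 0.04, adjusted p = 0.00685). The PSMD3 call was lost under median-of-ratios scaling, edgeR and DESeq2.

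**Figure D3:**
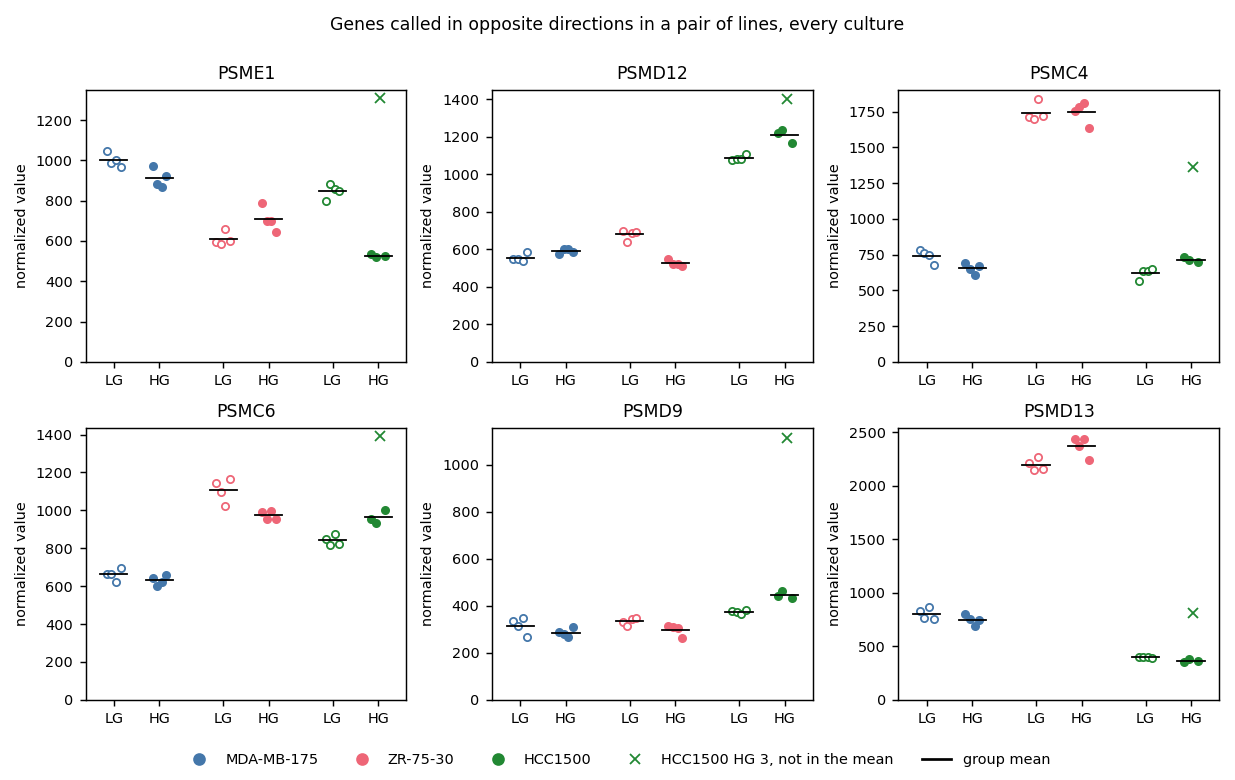
Normalized values, on a linear axis, of the 6 members called in opposite directions in different lines, in every culture. Open circles are LG, filled circles are HG, the line is the group mean and the cross is HCC1500 HG culture 3. PSMD12 lies lower in HG than in LG in ZR-75-30 and higher in HCC1500, and PSME1 higher in ZR-75-30 and lower in HCC1500.

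Calls held to different degrees in the 3 lines. Across every alternative that left out HCC1500 HG culture 3, 26 of 31 calls remained in ZR-75-30, 9 of 23 in HCC1500 and 4 of 13 in MDA-MB-175. Those of MDA-MB-175 were PSMC3, PSMC5, PSMD4 and PSME2. Those of HCC1500 were PSMB1, PSMB2, PSMC4, PSMC6, PSMD9 and PSMD12 on the high side and PSMD2, PSME1 and PSMG2 on the low side. In ZR-75-30 they included PSMB8, PSMB10, PSMB4, PSMD8 and PSME1 on the high side. Without MDA-MB-175 HG culture 3 the count in that line was 6, without HG culture 4 it was 7, and without LG culture 2 it was 8. Remaining calls were not counted over all genes, so these numbers show nothing particular to the proteasome. A call also counted as lost where an alternative did not test the gene.

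The lines were then compared with each other in LG, where these 3 comparisons share samples. ZR-75-30 had more proteasome mRNA than MDA-MB-175 at 36 members and less at 8, with a median log2 difference over the members of 0.46, against -0.18 over all genes. Of all genes, 28.8% were called higher and 44.3% lower. After rescaling to CPM the split was 28 higher and 11 lower, with a median of 0.22. Of the 17739 genes tested, 3731 were then called higher and 9417 lower, with a median of -0.26. As deposited, the 14 constitutive 20S genes were all called higher, as were 16 of the 17 genes of the 19S cap. The higher calls of PSMA7, PSMB7, PSMD3, PSMD7 and PSMD12 did not hold over every alternative. The 3 immunoproteasome genes were all called lower. The log2 difference was -1.16 ± 0.22 for PSMB8 (adjusted p = 0.000190), -1.88 ± 0.15 for PSMB10 (adjusted p = 2.08e-08) and -2.41 ± 0.27 for PSMB9 (adjusted p = 9.47e-07).

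HCC1500 was below MDA-MB-175 at 30 members and above it at 12, with a median difference of -0.34 (all genes 0.06, with 42.2% called higher and 38.4% lower). It was below ZR-75-30 at 35 members and above it at 10, with a median of -0.79 (all genes 0.25, with 48.0% called higher and 32.4% lower). After rescaling to CPM these medians were -0.22 and -0.43, against 0.13 and 0.39 over all genes. Among the 14 constitutive 20S genes, 13 were lower in HCC1500 than in ZR-75-30 and 1 was higher. PSMB8 was lower in HCC1500 than in ZR-75-30 (-0.75 ± 0.22, adjusted p = 0.00536), a call lost after rescaling to CPM (-0.32, adjusted p = 0.0866), while PSMB10 was higher (1.42 ± 0.15, adjusted p = 3.74e-07). PSMB9 did not pass the test between these lines (adjusted p = 0.125). Over all alternatives, 34 of the 44 calls between ZR-75-30 and MDA-MB-175 remained, 39 of 42 between HCC1500 and MDA-MB-175, and 38 of 45 between HCC1500 and ZR-75-30. Here too, remaining calls were not counted over all genes. PSMF1 was lower in HCC1500 than in MDA-MB-175 (-1.78 ± 0.05) and than in ZR-75-30 (-2.05 ± 0.05).

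PSMB3 stood out in ZR-75-30. It was 14159, 13708, 14313 and 13264 in that line's LG cultures. In MDA-MB-175 it was 692, 610, 658 and 566, and in HCC1500 342, 351, 362 and 374. The log2 difference from MDA-MB-175 was 4.46 ± 0.05 (adjusted p = 1.35e-17). Per kilobase of canonical transcript, PSMB3 had the highest level of all members in ZR-75-30 (18190), followed by PSMB4 (4109), whereas the highest level per kilobase was 1790 in MDA-MB-175 (PSMB4) and 1232 in HCC1500 (PSMD2), with PSMA7 next to it at 1231.

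PSMB3 lies on chromosome 17, as do 6 other members. Of those 6, PSMB6, PSMD3, PSMC5 and PSMD12 were higher in ZR-75-30 than in MDA-MB-175 by 0.24 to 0.40 on the log2 scale, PSMD11 differed by -0.05 and PSME3 was lower, with a difference of -1.11. The genes analysed within 100000 bases of PSMB3 were MLLT6, CISD3, PCGF2, PIP4K2B, CWC25 and RPL23, and each was higher in ZR-75-30, by 2.98, 4.55, 1.97, 3.58, 4.28 and 2.97. Gene copy number was not measured, and its part in these levels was not tested. NFE2L1, also on chromosome 17, encodes NRF1, a transcription factor of proteasome genes, and averaged 27380 in ZR-75-30 LG, 1223 in MDA-MB-175 LG and 2227 in HCC1500 LG.

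**Figure D4:**
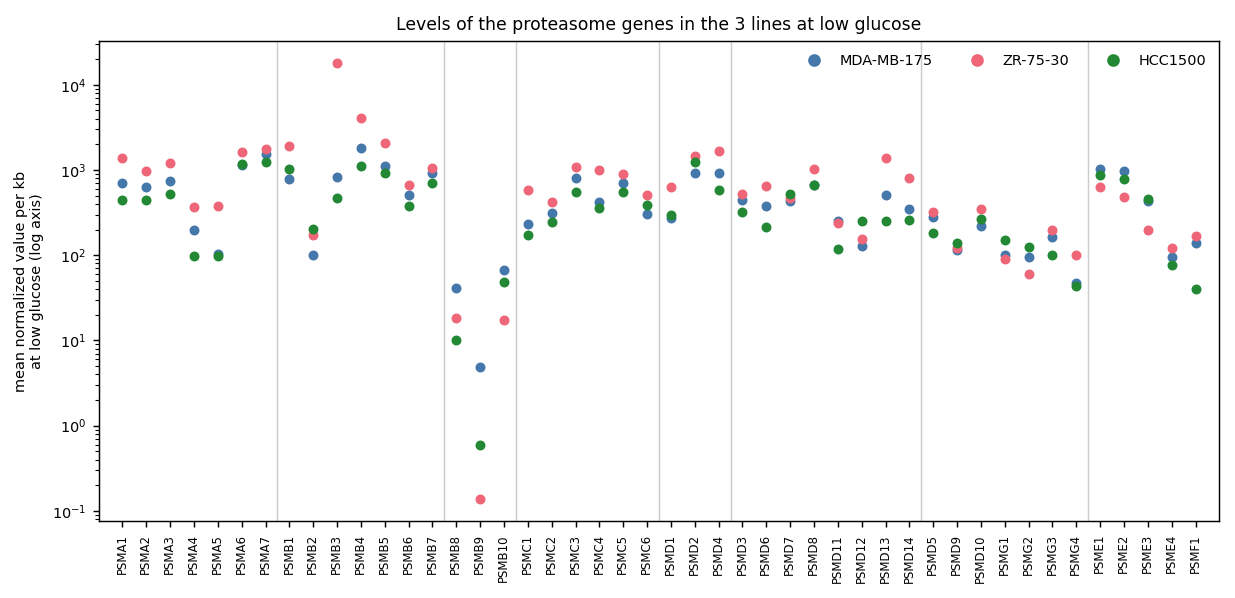
Mean LG value per kilobase of canonical transcript (log axis) of each member in the 3 lines, 4 cultures each, ordered by part of the proteasome with grey lines between the parts. PSMB3 in ZR-75-30 (18190) lies above all other members, and the immunoproteasome genes PSMB8, PSMB9 and PSMB10 lie below the constitutive subunits in each line.

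Other genes of the pathway were counted by list. For comparison, HCC1500 had 20.9% of all genes called higher by limma and 37.7% called lower. The same shares were 23.4% and 22.7% for ZR-75-30, with 11.9% and 13.7% for MDA-MB-175. None of these lists was tested against them, so the counts alone do not show that a list stands out. The list for the NRF1 pathway held 8 genes (NFE2L1, NFE2L2, DDI2, NGLY1, MAFG, MAFF, MAFK and BACH1). Of these, 4 were called higher and 1 lower in MDA-MB-175, 5 and 1 in ZR-75-30, and 7 and 0 by limma in HCC1500. The gene called lower was NGLY1 in both MDA-MB-175 (-0.45) and ZR-75-30 (-0.30), and its difference in HCC1500 (-0.18) was not called. MAFF, a small partner protein of NRF1, rose by 1.23, 1.69 and 1.32 in the 3 lines. NFE2L1 rose by 0.48 in ZR-75-30 and by 0.31 in HCC1500, and differed by 0.08 in MDA-MB-175. Of 13 proteasome-associated proteins, 1 was higher and 0 lower by limma in MDA-MB-175, while ZR-75-30 had 3 and 2, and HCC1500 had 5 and 5. Of 10 ubiquitin shuttle factors and unfoldase subunits, 2 were higher and 1 lower in MDA-MB-175, while ZR-75-30 had 2 and 3, and HCC1500 had 5 and 3. Ubiquitin and E1 genes (6) gave 0 higher and 3 lower by limma in MDA-MB-175, with 2 and 2 for ZR-75-30, and 3 and 1 for HCC1500.

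HCC1500 HG culture 3 differed from its group by transcript length. Of the 44 members with a mean of at least 10 in the other HG cultures, 23 were higher in it by more than 1 on the log2 scale. The median over members was 1.03, and that over all 12639 genes at the same level was 0.27. Members with a canonical transcript under 1200 bases (15 genes) were higher by a median of 1.31, with a range of 0.72 to 1.76. Members over 3000 bases (11 genes) had a median of 0.22 and a range of -0.41 to 1.20. Spearman's rho between this difference and length was -0.74 across the members and -0.69 across 12351 genes, points that share 1 library and are given as a description.

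The highest of these values was that of PSMB10 and the lowest that of PSME4, which encodes the large activator PA200. The median canonical length was 1529 bases for the members and 3275 bases for all of these genes. What made the library differ was not tested.

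**Figure D5:**
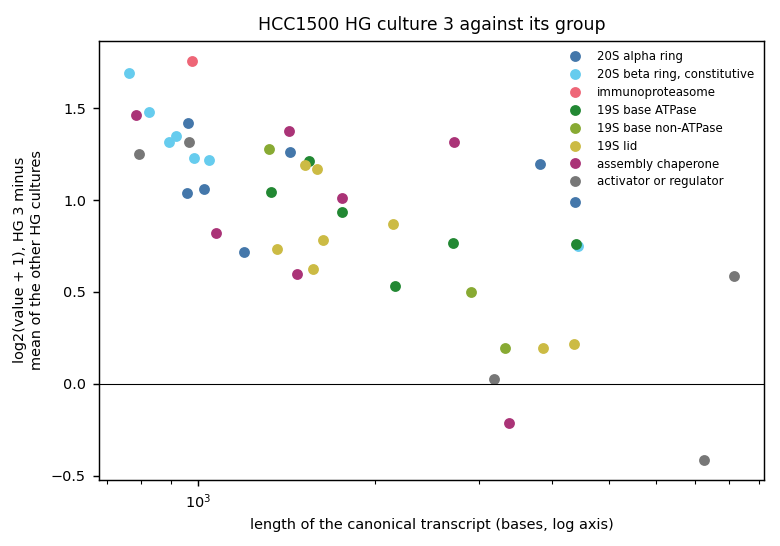
Difference of HCC1500 HG culture 3 from the mean of the other HG cultures (vertical axis, log2(value + 1) scale) against canonical transcript length in bases (log axis), 1 point per member with a mean of at least 10, coloured by part of the proteasome. Points under 1200 bases lie between 0.72 and 1.76, and points over 3000 bases between -0.41 and 1.20.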

How the data were processed

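RNA was measured by Illumina RNA-seq in 24 cultures, grouped by line and glucose from the sample labels. The deposited table holds a normalized signal per gene, made by the authors. It is not a count, but all values (100%, tolerance 0.05 of a read) were whole multiples of the worth of 1 read in their culture, so reads were recovered. The labels list hg38 and edgeR without a role, and the aligner, annotation and strand setting for these cultures are not given in the sources used here. In 9 lines of the table the symbol is split over cells, and these were read from their end.

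The test was limma 3.58.1 (R 4.3.3) with an intensity trend on log2(value + 1), over genes with at least 0.5 in at least 4 fitted cultures, Benjamini-Hochberg adjusted, two-sided, called under 0.05. Fold changes of low genes are understated on this scale. Alternatives were edgeR 4.0.16 and DESeq2 1.42.0 on recovered reads, other scalings, pseudocounts and filters, a replicate block, and leaving out each culture. edgeR on these reads called 19 members in HCC1500, 31 in ZR-75-30 and 10 in MDA-MB-175. Deposited totals were 5559394 to 7594840 per culture. Floors cover counting error only. The fits were tested on simulated data.

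Named were PSMB5 to PSMB10, PSME1 and PSME2, per line and class the called members with the largest rise and fall, members called alike in 3 lines or oppositely, the 3 smallest interaction p-values, and members not tested. PSMB2 (named as a call that held), PSMF1 and genes of the promoter, length and level comparisons were added after values were seen. Members, classes and lists were chosen with earlier results of these data known. Lengths and overlaps are from GENCODE 44 on GRCh37, matched by ID for 46 of 47 members and otherwise by symbol, and promoters from RefSeq.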

Additional observations from a re-analysis of the deposited data

Results flagged for a closer look

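In groups of 4 cultures, a gene was singled out where 1 culture lay far from the other 3 by Dixon's criterion, which chance meets in about 1 in 20 groups. This held for 1 member in MDA-MB-175 LG, 2 in MDA-MB-175 HG, 4 in ZR-75-30 LG, 5 in ZR-75-30 HG and 3 in HCC1500 LG. In HCC1500 HG it held for 38 members, and in 37 of them HG culture 3 was the one far above the others. There the values of culture 3 were 2279 for PSMB5, 802 for PSMB6, 1436 for PSMB7, 14.1 for PSMB8, 138 for PSMB10, 1310 for PSME1 and 1321 for PSME2.

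Other catalytic subunits with 1 distant culture were PSMB5 in MDA-MB-175 HG culture 1 (1236) and ZR-75-30 HG culture 4 (1897), and PSMB7 in MDA-MB-175 LG culture 1 (973). PSMB9 was distant in ZR-75-30 LG culture 1 (0.554), ZR-75-30 HG culture 3 (1.70) and HCC1500 HG culture 4 (0.923), values of a few reads at most.

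The glucose change differed between lines for 26 members by limma's test of the interaction, with the smallest adjusted p for PSME1 (3.29e-09), PSMD12 (8.75e-09) and PSMB8 (3.5e-07).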

How the results depend on the processing

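Of the counts of called members, that of MDA-MB-175 was 8 without a filter on low values (main count 13) and 6 to 16 when 1 culture was left out. HCC1500 went to 0 with HG culture 3 by limma (2 at an unadjusted p under 0.05; main count 23), and the interaction to 7 (main count 26). The median log2 change over members in MDA-MB-175 was -0.0442 under edgeR, and -0.0845 to -0.0390 when 1 culture was left out, the last without HG culture 3 (main value -0.0686). It was -0.20 after rescaling to CPM in ZR-75-30. In HCC1500 it was 0.0534 under median-of-ratios scaling, 0.0470 under edgeR, 0.0538 under DESeq2, -0.0423 after rescaling to CPM, -0.0412 with a replicate block, 0.16 with HG culture 3, and -0.0810 to -0.0412 when 1 culture was left out, the last without LG culture 3. The PSMB8 to PSMB5 ratio in ZR-75-30 HG was 1.61% with the length of all exons, an alternative chosen after seeing the data. With HG culture 3, differences in HCC1500 turned to 0.13 for PSMB7, 0.15 for PSME2, 0.18 for PSMC3, 0.12 for PSMD4, 0.0642 for PSMC5, 0.0818 for PSMD3 and 0.16 for PSMD13, and PSMD1 was at 0.00633 under median-of-ratios scaling and 0.00628 under DESeq2. The cause of these shifts was not tested.

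Deviations of same-numbered LG and HG cultures correlated at -0.04 to 0.16 in MDA-MB-175, 0.02 to 0.07 in ZR-75-30 and -0.05 to 0.05 in HCC1500. The means were 0.050, 0.042 and 0.009, against -0.017, -0.014 and -0.003 for cultures with different numbers. These values are small, and whether cultures with the same number share an origin is not stated. The main fits did not pair them. With the replicate block, 12, 31 and 21 members were called in these lines, 24 for the interaction, and 44, 41 and 45 between lines in LG. Depth limits PSMB9, with 0 to 4 reads per culture outside MDA-MB-175.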

Other observations

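The gene now named PSME3IP1, which encodes a partner of PSME3, is in the table under its former symbol FAM192A and was looked up after the members had been chosen by symbol. It was called lower at high glucose in all 3 lines, from a mean of 379 to 318 in MDA-MB-175 (-0.25, limma adjusted p = 0.0011), from 424 to 293 in ZR-75-30 (-0.53, adjusted p = 1.69e-07) and from 576 to 371 in HCC1500 without HG culture 3 (-0.63, adjusted p = 1.33e-10). HG culture 3 of HCC1500 was at 544.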
